A study of Mus musculus with 6 samples.

Results

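The microRNA miR-9 is cut from its hairpin as a pair of strands, mmu-miR-9-5p and mmu-miR-9-3p, and both were followed in the RNA-induced silencing complex (RISC) of mouse brain together with the label mmu-miR-9b-5p. All read sequences whose miRNA label in the deposited table was 1 of these 3 names were taken. They were 1369 of 143934 read sequences, of which 875 were labelled mmu-miR-9-5p, 487 mmu-miR-9-3p and 7 mmu-miR-9b-5p, and their 3 labels were among 1091. The brains came from BL6 (C57BL/6J) mice, and no allele or agent set the groups apart. The mice were males, as the study's methods state. There were 3 samples from mice of 2 months (2M, young) and 3 from mice of 18 months (18M, old), each holding cortex and hippocampus combined. RNA bound to Argonaute (Ago) proteins was pulled down with a peptide of GW182, a protein that binds Ago, sized on a gel, and sequenced, a method called Ago-RP-Seq. The values are in RPM, reads scaled to a common library total, and the comparison asked how the RISC content of old brains differs from that of young ones.

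In the RISC, Ago holds 1 strand of a miRNA duplex and uses the bases near its 5′ end, the seed, to find target mRNAs. miR-9 is a brain-enriched miRNA known for its part in neurogenesis, where mmu-miR-9-5p represses the transcriptional repressor Rest and the progenitor factors Nr2e1 and Hes1. The opposite strand, once called miR-9*, is active as well and is known to repress the Rest partner Rcor1 and the chromatin subunit BAF53a. Because the seed is counted from the 5′ end, a read that starts later on the same hairpin, a 5′ isomiR, carries another seed, whereas a 3′ isomiR differs only in length.

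The mature strands are shown because their first bases define the seeds that the results turn on. Capitals mark the seed, bases 2 to 8. The sequences were taken from RefSeq (GRCm38.p6).
mmu-miR-9-5p: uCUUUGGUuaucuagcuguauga
mmu-miR-9-3p: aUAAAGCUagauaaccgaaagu
mmu-miR-9b-5p: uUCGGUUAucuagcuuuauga

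The same 23 nt mmu-miR-9-5p and 22 nt mmu-miR-9-3p lie in 3 hairpins, so that most reads cannot be assigned to 1 gene. Mir9-1 is at chr3:88215598-88215686 on the plus strand, inside the lincRNA gene Gm3764 and outside its annotated exons. Mir9-2 is at chr13:83738814-83738885 on the plus strand, within an exon of the lincRNA C130071C03Rik. Mir9-3 is at chr7:79505264-79505353 on the plus strand, inside its host lincRNA Mir9-3hg and outside its annotated exons. Gene models were those of GENCODE M21. The hairpins are shown because the bases beside the arms are all that tells the genes apart, and capitals mark the 5p arm and the 3p arm.
Mir9-1: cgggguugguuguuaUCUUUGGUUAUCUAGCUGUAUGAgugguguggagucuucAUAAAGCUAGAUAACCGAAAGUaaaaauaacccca
Mir9-2: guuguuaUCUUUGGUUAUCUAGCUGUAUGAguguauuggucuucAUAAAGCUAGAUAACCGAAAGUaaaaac
Mir9-3: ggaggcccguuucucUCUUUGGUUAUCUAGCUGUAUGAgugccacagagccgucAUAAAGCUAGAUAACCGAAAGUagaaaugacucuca

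The annotation places mmu-miR-9b-5p on the opposite strand of the same loci, at chr3:88215650-88215670 and chr7:79505316-79505336, overlapping the bases that encode mmu-miR-9-3p on the plus strand. RefSeq lists it there as a product of the antisense genes Gm25641 and Gm51285.

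Between 19272046 and 25080484 reads per sample were recovered from the RPM values, so that 3 reads, taken as the detection floor, were 0.120 to 0.156 RPM. This floor covers counting error only. At this depth counting error was far below the spread between samples for the abundant strands: the Wilson 95% interval of the mmu-miR-9-5p share in 2M replicate 1, 4.66% of reads, ran from 4.65% to 4.67%. Differences between ages were tested with limma on log2(RPM + 1), for features averaging at least 10 RPM, with Benjamini-Hochberg adjustment over all of them and a threshold of 0.05. Log2 fold changes are 18M over 2M on that scale, with their standard errors (SE). Nothing in the labels says that the samples of a group were separate animals, and the p-values measure the spread between these samples.

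mmu-miR-9-5p was among the most abundant miRNAs in the RISC, the fourth of 1091 labels by mean RPM with 4.22% of all reads. Its total was 46588, 25147 and 33531 RPM in 2M replicates 1, 2 and 3, and 41538, 56103 and 50277 RPM in 18M replicates 1, 2 and 3. The lowest values were those of 2M replicates 2 and 3, but 2M replicate 1 lay above 18M replicate 1, so that the ages overlapped. The mean of the 2M samples was 35089 ± 10805 RPM and that of the 18M samples 49306 ± 7331 RPM (SD, n = 3 each). The log2 fold change was 0.53 (SE 0.24) and missed the threshold (limma adjusted p = 0.318). Leaving out 2M replicate 2 made it 0.31, and leaving out 2M replicate 1 made it 0.75. In bulk tissue, a different number of cells that hold a miRNA and a different amount of it per cell cannot be told apart.

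The opposite strand mmu-miR-9-3p was the eleventh label, with 1.84% of all reads, and varied far less between samples. Its total was 18940, 19739 and 19730 RPM in the 2M samples and 17334, 18879 and 15591 RPM in the 18M samples. In RPM all 18M samples lay below all 2M samples, and the ages of 24% of the 466 labels tested did not overlap. The order depended on the scaling. With median-of-ratios scaling, under which the ages of 23.4% of labels did not overlap, the values were 18120, 19376 and 19112 at 2M and 17703, 20632 and 15357 at 18M, so that 18M replicate 2 was the highest of all samples and the ages overlapped. In RPM the means were 17268 ± 1645 at 18M and 19470 ± 459 at 2M, a log2 fold change of -0.18 (SE 0.11) that missed the threshold (limma adjusted p = 0.432). With the other scaling it was -0.09.

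mmu-miR-9b-5p was rare, label 441 by mean RPM. Its reads made 13.9, 9.25 and 11.9 RPM in the 2M samples and 12.7, 16.1 and 16.2 RPM in the 18M samples. The ages overlapped through 2M replicate 1 and 18M replicate 1, and the log2 fold change was 0.34 (SE 0.19, limma adjusted p = 0.403). In the limma fit 15 of 466 labels (3.22%) were called. None of the 3 miR-9 labels was, and none reached an unadjusted p under 0.05. edgeR and DESeq2 on the recovered reads called none of the 3 either; for mmu-miR-9-5p they gave adjusted p = 0.292 and adjusted p = 0.176.

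**Figure D1:**
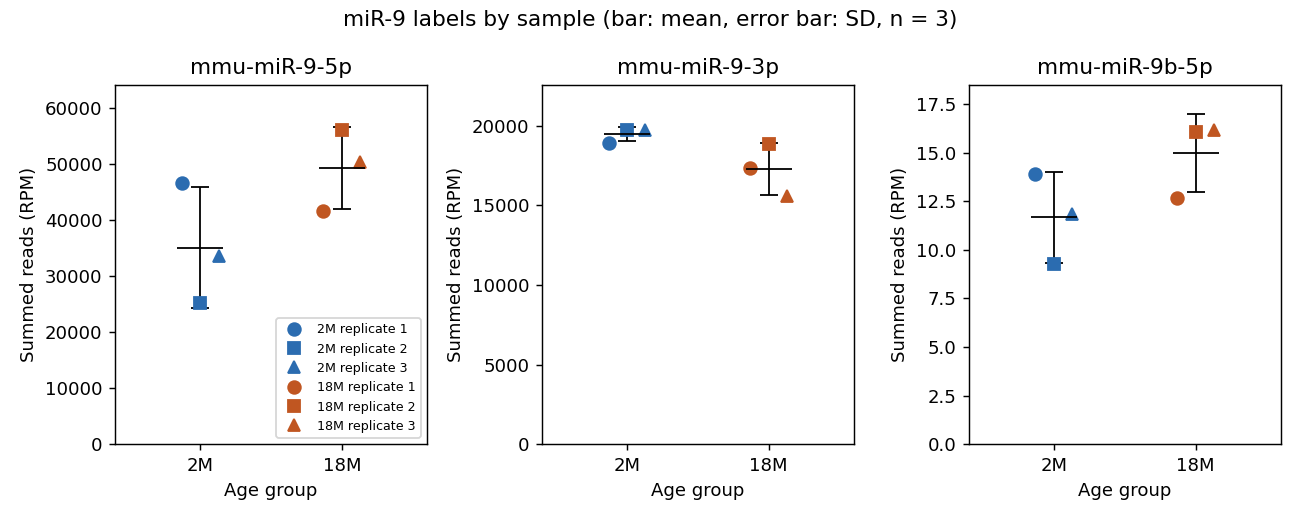
Summed RPM of each miR-9 label (y axis, from 0, with its own range per panel) in the 3 samples of 2M (blue) and the 3 of 18M (orange), with black bars at the mean and error bars of 1 SD. mmu-miR-9-5p spread from 25147 to 56103 RPM with overlapping ages, mmu-miR-9-3p only from 15591 to 19739 RPM with the 18M samples lowest on this scale (not after median-of-ratios scaling), and mmu-miR-9b-5p did not exceed 16.2 RPM.

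Both strands of the miR-9 hairpin were loaded into Ago. mmu-miR-9-3p made up 30.3% of the mean RPM of both arms. Over the 144 miRNAs whose 5p and 3p labels both had a mean of at least 10 RPM, the rarer arm held a median of 10.8%. In 26 of these pairs its share was higher than in miR-9. By level, mmu-miR-9-3p was the most abundant of the 144 rarer arms.

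The ratio of mmu-miR-9-5p to mmu-miR-9-3p was 2.46, 1.27 and 1.70 in the 2M samples and 2.40, 2.97 and 3.22 in the 18M samples. The lowest ratios were again those of 2M replicates 2 and 3, and 2M replicate 1 lay between 18M replicates 1 and 2. On the log2 scale the mean was 0.80 ± 0.48 at 2M and 1.51 ± 0.22 at 18M. The difference of 0.70 (SE 0.27) had an unadjusted p of 0.0369 in limma and an adjusted p of 0.531. No pair was called, 0 of 144 (0.0%), while 10 had an unadjusted p under 0.05. 9 pairs had a larger difference in either direction than miR-9, and the median difference over all pairs was -0.02. Without 2M replicate 1 the miR-9 difference was 0.95, and without 2M replicate 2 it was 0.48.

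mmu-miR-9-5p existed as 3 main reads of 21, 22 and 23 nt that shared their first base and seed and ended at different bases. They are shown with the seed in capitals, as the DNA letters of the deposited reads.
21 nt read: tCTTTGGTtatctagctgtat
22 nt read: tCTTTGGTtatctagctgtatg
23 nt read: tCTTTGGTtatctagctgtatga

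The 21 nt read, which lacks the last 2 bases of the annotated strand, was the most abundant, with 33.9% of the label. Its level was 14872, 5283 and 9092 RPM in the 2M samples and 14478, 21552 and 20496 RPM in the 18M samples. It was lowest in 2M replicates 2 and 3 and highest in 18M replicates 2 and 3, and 2M replicate 1 exceeded 18M replicate 1 in RPM. With median-of-ratios scaling these were 14228 and 14786, and the ages did not overlap. Under that scaling the ages of 23.4% of labels did not overlap. The share of read sequences was computed in RPM only, where it was 21%. The log2 fold change in RPM was 1.05 (SE 0.36) with an unadjusted p of 0.0229 and a limma adjusted p of 0.296. It was 0.67 when 2M replicate 2 was left out and 1.42 when 2M replicate 1 was.

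The annotated 23 nt read had 16091, 8479 and 12054 RPM in the 2M samples and 13480, 16917 and 14449 RPM in the 18M samples. The ages overlapped, and the log2 fold change was 0.33 (SE 0.24, limma adjusted p = 0.541). The 22 nt read was the steadiest of the 3, between 7029 and 8411 RPM in all samples, with a log2 fold change of 0.05 (SE 0.13, limma adjusted p = 0.901).

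The length profile of mmu-miR-9-5p differed accordingly. Reads of 21 nt were 34.7%, 24.6% and 30.7% of the label in the 2M samples and 38.2%, 41.4% and 43.8% in the 18M samples. All 18M samples lay above all 2M samples, with means of 30.0% ± 5.05 and 41.1% ± 2.83. Reads of 22 nt showed the opposite order, 21.6%, 31.8% and 25.1% at 2M and 20.4%, 18.6% and 18.8% at 18M. Reads of 23 nt were 39.5% ± 0.97 at 2M and 35.6% ± 1.81 at 18M, and reads of 24 nt 1.34% ± 0.14 and 1.10% ± 0.09. The ages did not overlap at these 4 of the 5 lengths from 20 to 25 nt that held at least 1% of the label, at 0 of 5 for mmu-miR-9-3p and at 0 of 4 for mmu-miR-9b-5p. Over all 2119 such shares of the labels tested they did not overlap in 15.5%. Shares of 1 label add up to a fixed total and are not separate observations. The exact two-sided permutation test gave p = 0.1, the smallest that 3 against 3 samples allow, and an adjusted p of 0.3 over 12 shares of both arms.

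The mean length of the mmu-miR-9-5p reads was 22.03, 22.09 and 22.07 nt in the 2M samples and 21.95, 21.91 and 21.87 nt in the 18M samples. Every 18M sample was shorter than every 2M sample, and for 19.1% of the 466 labels the ages did not overlap in this measure. The difference was -0.155 nt (SE 0.033, unadjusted p = 0.00312, limma adjusted p = 0.184). It lay between -0.177 and -0.133 nt when each sample was left out in turn. Of the 466 labels tested for mean length, 0 (0.0%) were called, 67 had an unadjusted p under 0.05 and 45 had a larger difference in either direction, and the p of mmu-miR-9-5p was the seventh lowest. Over all labels the median difference was -0.0074 nt.

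mmu-miR-9-3p showed no such spread in length. Its 22 nt reads made 59.5% ± 0.76 at 2M and 59.2% ± 0.02 at 18M. The mean length was 21.85 nt at 2M and 21.84 nt at 18M, a difference of -0.0059 nt (SE 0.024, limma adjusted p = 0.963).

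**Figure D2:**
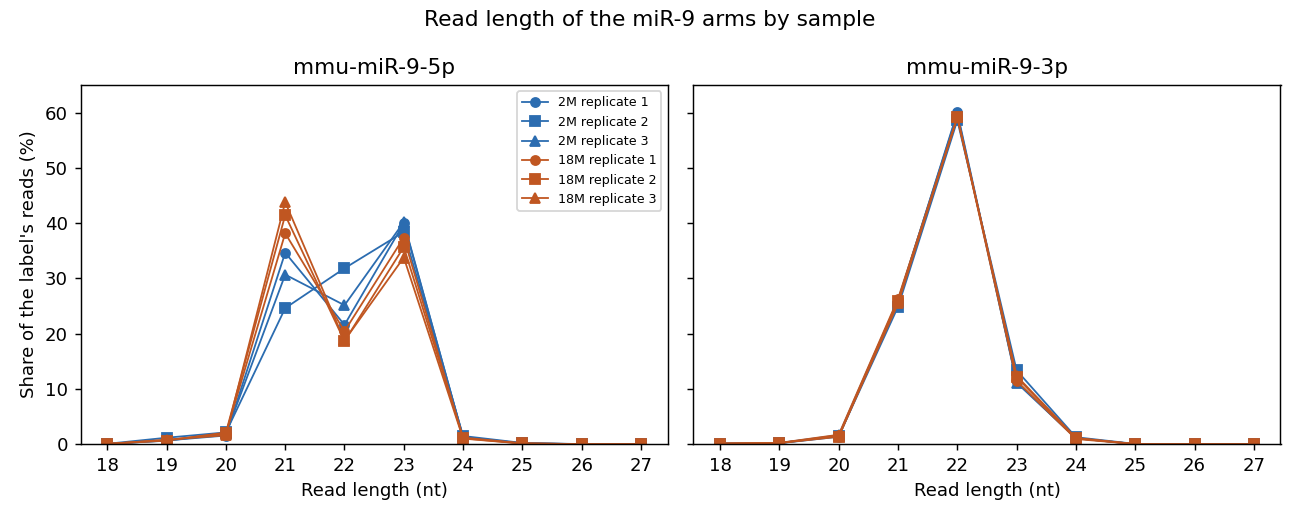
Share of the reads of each arm (y axis, percent of the label) by read length (x axis, nt) in the 3 samples of 2M (blue) and the 3 of 18M (orange). For mmu-miR-9-5p the orange lines lie above the blue ones at 21 nt (38.2% to 43.8% against 24.6% to 34.7%) and below them at 22 and 23 nt, while the 6 lines of mmu-miR-9-3p nearly coincide.

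mmu-miR-9-5p had 1 main start, though its share of reads off the main seed, 6.38%, was above the median of 3.95% over 466 labels. Reads at the annotated first base were 92.5% to 94.1% of the label in each sample. A start 1 base later was the most frequent other start, with 3.95% to 4.86%, and replaced the 6mer seed (bases 2 to 7) CUUUGG by UUUGGU. Next came the seeds UUGGUU with 0.73% and UCUUUG with 0.42% of its RPM, from starts 2 bases later and 1 base earlier.

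mmu-miR-9-3p in contrast had a pair of starts of almost equal use, which makes it a mixture of different seeds. Its 3 leading reads are shown with their seeds in capitals.
22 nt read, annotated start: aTAAAGCTagataaccgaaagt
21 nt read, start 1 base later: tAAAGCTAgataaccgaaagt
22 nt read, start 1 base later: tAAAGCTAgataaccgaaagta

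Reads with the annotated seed UAAAGC were 49.9% of the mmu-miR-9-3p RPM and reads with the shifted seed AAAGCU 49.1%. Across the 6 samples the first share ranged from 49.1% to 50.5% and the second from 48.6% to 49.6%, so that the split hardly moved. The RPM of the UAAAGC reads was 9533, 9699 and 9964 in the 2M samples and 8590, 9430 and 7729 in the 18M samples. The RPM of the AAAGCU reads was 9224, 9783 and 9583 in the 2M samples and 8581, 9275 and 7693 in the 18M samples. In both sets 18M replicate 3 was lowest, and in RPM the ages overlapped only for AAAGCU. With median-of-ratios scaling they overlapped for both.

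The share of reads off a label's main seed was 50.2% for mmu-miR-9-3p, the tenth of 466 labels, 6.38% for mmu-miR-9-5p and 10.2% for mmu-miR-9b-5p, against a median of 3.95% over the labels. Between ages the log2 ratio of off-seed to main-seed reads differed by 0.02 (SE 0.08) for mmu-miR-9-3p and -0.09 (SE 0.13) for mmu-miR-9-5p. None of the 466 labels (0.0%) was called by limma for this measure, and 38 had an unadjusted p under 0.05. For mmu-miR-9b-5p it differed by -0.11 (SE 0.23).

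The start and the end of mmu-miR-9-3p reads were not used in all combinations alike. Of the hairpin-matching reads with the annotated start, 86.6% stopped at the annotated last base and 7.90% ran 1 base further. Of those that started 1 base later, 52.7% stopped at the annotated last base and 38.2% ran 1 base further. The first of these shares was between 86.1% and 87.3% and the last between 36.9% and 39.0% in every sample.

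**Figure D3:**
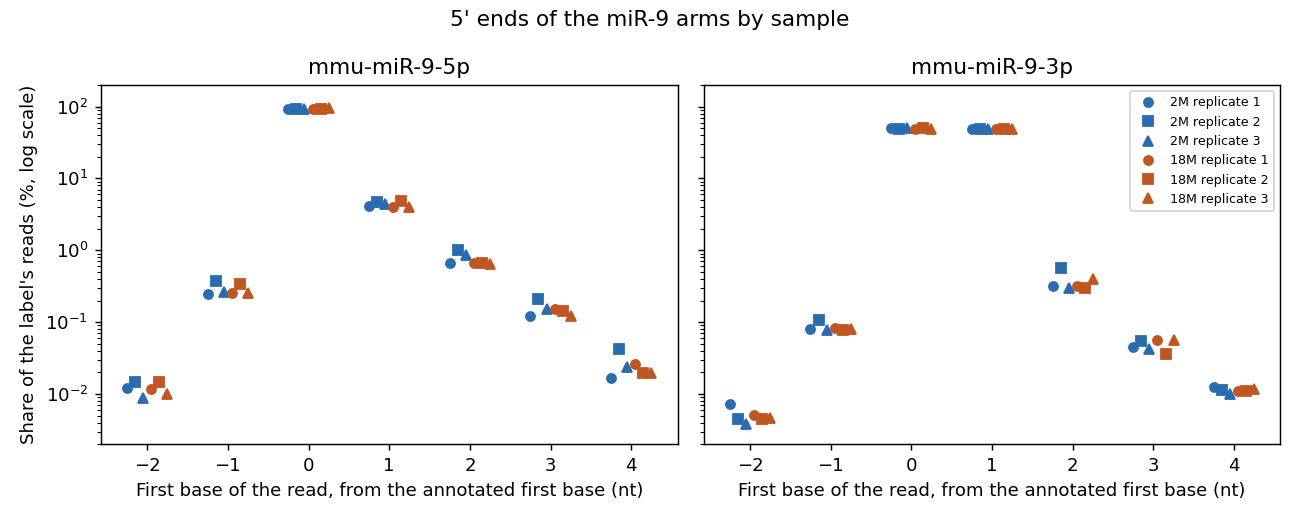
Share of the reads of each arm (y axis, percent of the label, log scale) by the position of the first base relative to the annotated first base (x axis, nt; positive values lie downstream) in the samples of 2M (blue) and 18M (orange). mmu-miR-9-5p has 1 dominant start, with 92.5% to 94.1% of its reads, whereas mmu-miR-9-3p has starts at 0 and +1 that hold 48.8% to 50.3% and 48.4% to 49.4%.

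Each 6mer seed carries a viability, which the table gives as the mean percentage of cells of 3 mouse lines that survive an siRNA built around it. The lower the viability, the more toxic the seed. CUUUGG of mmu-miR-9-5p had a viability of 60.9%, and its next seed UUUGGU 60.4%. The seeds of the other starts were higher, 83.3% for UUGGUU and 82.6% for UCUUUG. For mmu-miR-9-3p the annotated seed UAAAGC had 50.6% and the shifted seed AAAGCU 54.3%, so that the later start carried the higher value. Weighted by RPM, the mean seed viability was 61.2% ± 0.07 at 2M and 61.1% ± 0.02 at 18M for mmu-miR-9-5p (exact permutation p = 0.3). It was 52.6% ± 0.08 and 52.6% ± 0.02 for mmu-miR-9-3p (exact permutation p = 1).

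Of all RISC reads with the seed CUUUGG, 98.3% carried the mmu-miR-9-5p label. For UAAAGC 98.3% carried mmu-miR-9-3p. The shifted seed AAAGCU was shared: 87.7% of its RPM was mmu-miR-9-3p, and the next label was miR-320-3p with 1094 RPM. As seed totals over all small RNAs, CUUUGG had a log2 fold change of 0.53 (SE 0.24, limma adjusted p = 0.401), UAAAGC -0.19 (SE 0.12, limma adjusted p = 0.533) and AAAGCU -0.13 (SE 0.11, limma adjusted p = 0.652). None of the miR-9 seeds tested was called, while 10 of 1105 seeds (0.905%) were. Unadjusted p-values of these 3 seeds were 0.0596 or higher, and edgeR and DESeq2 called none of the 3.

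Among single reads, 52 of the 875 mmu-miR-9-5p sequences, 23 of the 487 mmu-miR-9-3p sequences and 1 of the 7 mmu-miR-9b-5p sequences had a mean of at least 10 RPM and were tested. None of them was called in limma, against 12 of all 3281 sequences tested (0.366%), and neither edgeR nor DESeq2 called any. At an unadjusted p under 0.05, 16 of the 52 mmu-miR-9-5p reads passed, all with higher values at 18M, and 1 of the 23 mmu-miR-9-3p reads, with lower values at 18M. The share over all sequences was 13.0%. The 16 depended on which samples were included. Leaving out 18M replicate 2 brought them to 3, and leaving out 2M replicate 3 to 4. Either 2M replicate 2 or 18M replicate 3 left out gave 5. The count was 13 when 18M replicate 1 was left out and 20 when 2M replicate 1 was. With the replicate block 6 of the 52 passed. The mmu-miR-9-3p read did not pass when 2M replicate 2 or 3 or 18M replicate 1 or 3 was left out, nor with the replicate block, with median-of-ratios scaling or in edgeR. The median log2 fold change was 0.30 for the mmu-miR-9-5p reads and -0.17 for the mmu-miR-9-3p reads, beside 0.02 over all sequences. These reads share their source and are not independent.

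Of the 10 leading mmu-miR-9-5p reads, the 21 nt read and its 5′ isomiR of 20 nt, which end at the same base, had the highest log2 fold changes. The isomiR was the higher of them, with 341, 149 and 214 RPM at 2M and 326, 725 and 427 RPM at 18M and a log2 fold change of 1.07 (SE 0.39, limma adjusted p = 0.313). The isomiR ending at the annotated last base, of 22 nt, had a log2 fold change of 0.39 (SE 0.25). The isomiR between them, of 21 nt, had 0.11 (SE 0.20). The leading reads of mmu-miR-9-3p were uniform by comparison, with log2 fold changes from -0.28 to -0.16.

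**Figure D4:**
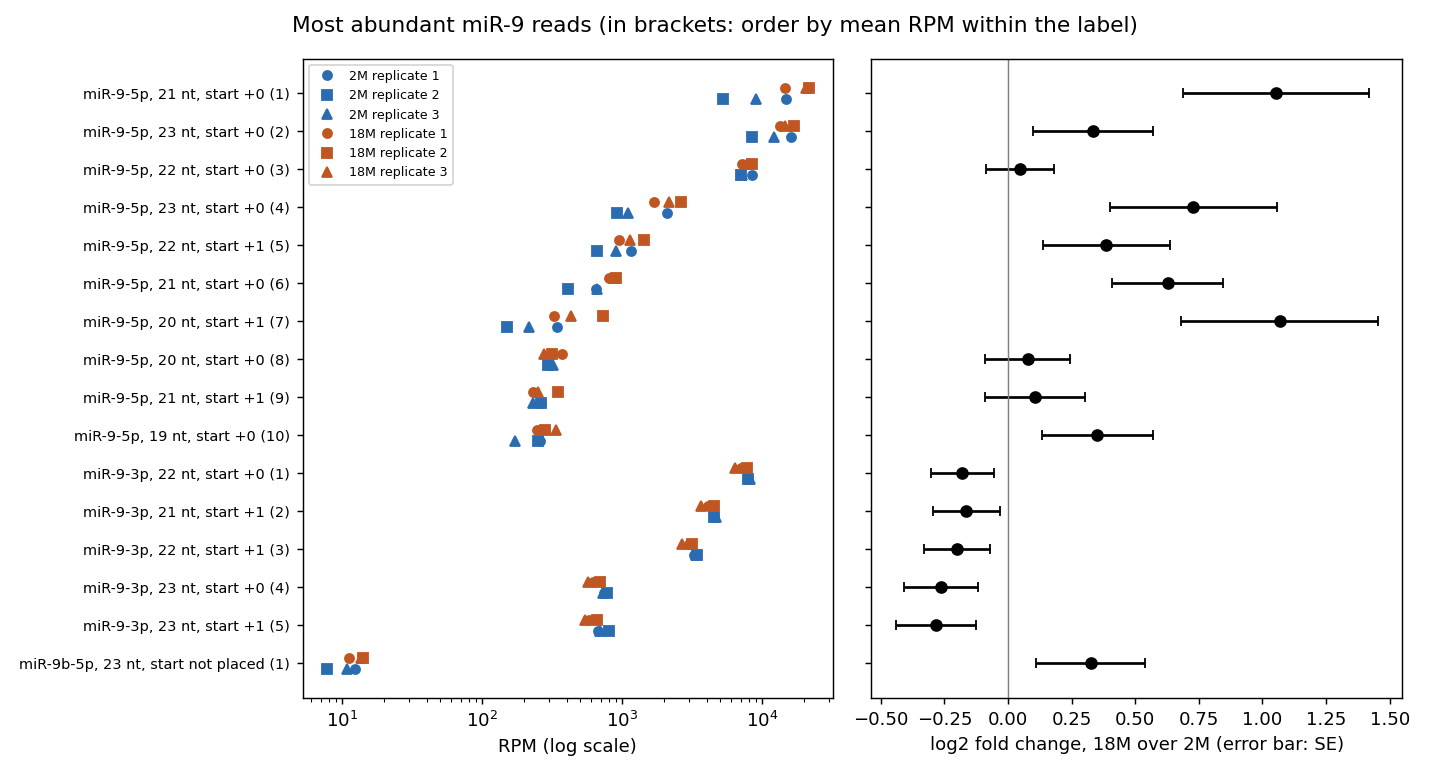
Leading reads of the 3 labels with a mean of at least 10 RPM, named by label, length, first base relative to the annotated one and order within the label; left, RPM per sample (log scale, 2M blue, 18M orange), right, log2 fold change of 18M over 2M with SE. The reads of mmu-miR-9-5p that end 2 bases early reach 1.05 and 1.07, and the 5 reads of mmu-miR-9-3p lie between -0.28 and -0.16.

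Reads that first left the hairpin sequence within their last 3 bases, called tailed, were 7.85% to 8.74% of mmu-miR-9-5p and 6.10% to 7.04% of mmu-miR-9-3p in each sample. All bases from the first mismatch on counted as tail, so a substitution near the end was counted too. A base that happened to equal the hairpin's next base could not be recognised as added. In mmu-miR-9-5p 58.9% of the tailed RPM ended in T only and 33.5% in A only. In mmu-miR-9-3p T only made 84.0%. The leading tailed reads are shown with the seed in capitals; in each the last base is the added one.
23 nt mmu-miR-9-5p read: tCTTTGGTtatctagctgtatgt
21 nt mmu-miR-9-5p read: tCTTTGGTtatctagctgtaa
23 nt mmu-miR-9-3p read: tAAAGCTAgataaccgaaagtat

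The first, the 22 nt mmu-miR-9-5p read with an added T, had 2096, 910 and 1096 RPM at 2M and 1699, 2610 and 2150 RPM at 18M. Its ages overlapped, and its log2 fold change was 0.73 (SE 0.33, limma adjusted p = 0.404). The second, a 20 nt read with an added A, had 646, 410 and 658 RPM at 2M and 805, 908 and 880 RPM at 18M. Its ages did not overlap, as in 21% of all read sequences tested, and its log2 fold change was 0.63 (SE 0.22, limma adjusted p = 0.296). The tailed share of mmu-miR-9-5p was 8.15% ± 0.33 at 2M and 8.45% ± 0.28 at 18M (exact permutation p = 0.4). That of mmu-miR-9-3p was 6.58% ± 0.40 at 2M and 6.23% ± 0.11 at 18M (exact permutation p = 0.1, the smallest possible, adjusted p = 0.5 over 5 values).

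The base before the mature 5p arm is C in Mir9-3 and A in Mir9-1 and Mir9-2, so the few mmu-miR-9-5p reads that start early can be assigned. The most abundant of each kind are shown with the telling base in capitals.
Mir9-3: Ctctttggttatctagctgtat
Mir9-1 or Mir9-2: Atctttggttatctagctgtat

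Reads that included the base before the mature start made 78.3 RPM for Mir9-3 (26 sequences) and 47.6 RPM for Mir9-1 or Mir9-2 (18 sequences), a small part of mmu-miR-9-5p. The Mir9-3 share of them was 59.3%, 61.1% and 59.9% in the 2M samples and 61.9%, 66.7% and 60.5% in the 18M samples. It was highest in 18M replicate 2, the ages overlapped, and the means of 60.1% ± 0.90 and 63.1% ± 3.25 gave an exact permutation p of 0.2. Whether reads with the annotated start came from the 3 genes in the same proportion was not tested. On the other arm, the base 2 after the mature end is G in Mir9-3 and A in Mir9-1 and Mir9-2. There 4 mmu-miR-9-3p sequences with 18.4 RPM matched Mir9-3 only. Reads matching any of the 3 hairpins and ending at that base made 58.7 RPM with the annotated start and 582 RPM with the start 1 base later. An A added to a read could not be told from the A of Mir9-1 or Mir9-2, so the share of Mir9-3 on this arm was not tested.

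The reads labelled mmu-miR-9b-5p were mostly not the annotated mmu-miR-9b-5p strand. Their main read, with 87.7% of the label, is shown above the reference strand as it was read, with the seeds in capitals.
Main read: tCTTTGGTtatctagctttatga
Reference strand: tTCGGTTAtctagctttatga

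The main read had 12.4, 7.73 and 10.9 RPM at 2M and 11.3, 14.1 and 13.7 RPM at 18M. It carried the mmu-miR-9-5p seed CUUUGG and differed from the 23 nt mmu-miR-9-5p read by the single substitution G18T, counted from 1 at the 5′ end of the read. The exact reference strand had a mean of 0.12 RPM, was at 0 in 2M replicate 1 and did not exceed 0.159 RPM in any sample, near the floor of 3 reads. Of the label's RPM, 97.6% lay in 4 sequences with fewer mismatches to the miR-9 hairpins than to their opposite strand, 0.905% in the reference strand and 1.50% in 2 sequences equally distant from both.

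Relative to the 23 nt mmu-miR-9-5p read, the G18T read was at 0.0770%, 0.0912% and 0.0901% in the 2M samples and 0.0835%, 0.0834% and 0.0948% in the 18M samples. It therefore followed its parent read closely while that read varied between 8479 and 16917 RPM. All 69 possible single substitutions of the parent were listed, with a median level of 0.0400%, and G18T ranked 17 among them. The same substitution was at 0.0891% of the 21 nt read and at 0.0819% of the 22 nt read, and there the sequences carried no miRNA label. The substitution with the highest level, 13.0% of the parent, was A23T, which is the tailed 23 nt read described above.

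**Figure D5:**
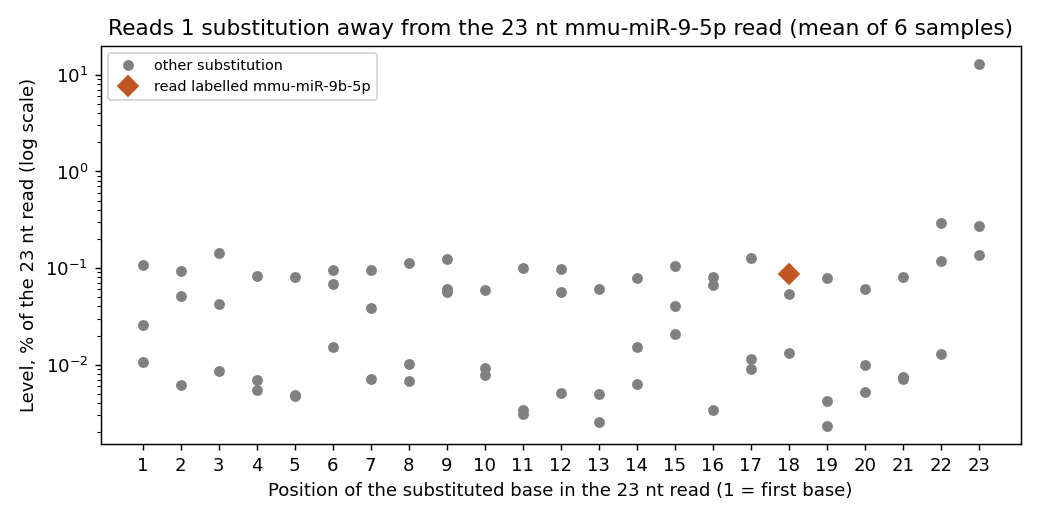
Level of each of the 69 reads that differ from the 23 nt mmu-miR-9-5p read by 1 base (y axis, percent of that read, mean of 6 samples, log scale) by the position of the base (x axis, 1 is the first base). The read labelled mmu-miR-9b-5p (diamond) lies at 0.0860% at position 18, ranking 17 of 69, and the highest point, 13.0%, is at the last base.

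The miRNAs whose values over the 6 samples ran most like those of each strand were sought among 272 labels with a mean of at least 100 RPM, by the root mean square difference of their log2(RPM + 1) values after centring. For mmu-miR-9-5p they were miR-221-3p (0.17), miR-320-3p (0.19), miR-346-5p (0.21), miR-218-5p (0.21) and miR-187-3p (0.22). miR-221-3p had 7952, 6110 and 6924 RPM at 2M and 8945, 12850 and 9653 RPM at 18M, thus also lowest in 2M replicate 2 and highest in 18M replicate 2. For mmu-miR-9-3p they were miR-379-3p (0.06), miR-132-5p (0.06), the joint label of miR-486a-5p and miR-486b-5p (0.07), miR-151-3p (0.08) and miR-181a-5p (0.08). By this measure mmu-miR-9-3p ranked 127 for mmu-miR-9-5p, and mmu-miR-9-5p ranked 228 for mmu-miR-9-3p, with a difference of 0.46. The measure also depends on how much each label varied. The root mean square of the centred values was 0.39 for mmu-miR-9-5p and 0.12 for mmu-miR-9-3p. These ranks therefore cannot tell a different course over the samples from a different spread.

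Other miRNAs of neurons and neural progenitors were read beside miR-9. All 16 on the list were tested, and none was called by limma, edgeR or DESeq2; 2 had an unadjusted p under 0.05 in limma and none in edgeR or DESeq2. Of the 16, 5 had positive and 11 negative log2 fold changes, with a median of -0.08, beside -0.07 over all 466 labels. miR-124-3p, the leading miRNA of mature neurons, had 126188, 127742 and 128952 RPM at 2M and 95824, 134320 and 92539 RPM at 18M. With all samples its log2 fold change was -0.27 (SE 0.15, limma adjusted p = 0.403). Its ages overlapped only through 18M replicate 2. Without that sample it was called, with a log2 fold change of -0.44, in a run that called 15 of the 466 labels. No other setting called any of the 16. miR-128-3p, another neuronal miRNA, had a log2 fold change of 0.07 (SE 0.22), miR-125b-5p -0.34 (SE 0.18) and miR-132-3p, which is induced by neuronal activity, -0.22 (SE 0.09).

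Markers of other cells in the tissue were present in both ages, and none was called by limma, edgeR or DESeq2. The summed RPM of 3 oligodendrocyte miRNAs ranged from 6659 to 13932 at 2M and from 7556 to 11213 at 18M. For 6 miRNAs of microglia and other immune cells, 5 of them tested, it was 3776 to 4111 at 2M and 2834 to 3402 at 18M. Most of this sum was miR-150-5p, with means of 3023 RPM at 2M and 2294 RPM at 18M. Its ages did not overlap, as in 24% of the 466 labels tested. Of the 5 tested, 2 had positive and 3 negative log2 fold changes. The summed RPM of 4 vessel miRNAs was 11390 to 17001 at 2M and 10104 to 13607 at 18M. That of the 2 listed erythrocyte miRNAs was 2356 to 3498 and 1112 to 2736. Another planned erythrocyte miRNA, miR-486a-5p, was not a label by itself. It was left out, though its joint label with miR-486b-5p was present. The 5 miRNAs of the miR-200 family, listed as epithelial and olfactory, summed to 37770 to 44974 at 2M and 28949 to 48013 at 18M. Whether they came from tissue beside cortex and hippocampus was not tested. The 3 sensory miRNAs summed to 4718 to 5472 at 2M and 4545 to 9002 at 18M. The 2 choroid plexus miRNAs, 1 of them tested, summed to 2530 to 2992 and 2626 to 2900. At an unadjusted p under 0.05, 1 immune and 1 vessel miRNA passed in limma, 1 immune miRNA passed in edgeR and in DESeq2, and no other listed marker passed. The part of these cell types in the miR-9 values was not tested.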

How the data were processed

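The deposited table gives, for each read sequence of 6 Ago-RP-Seq libraries, RPM values, miRNA labels and the viability score of its 6mer seed, a percentage that the authors averaged over 3 mouse cell lines. According to the study's methods, the authors trimmed and collapsed reads, removed rare ones, matched the rest to small RNA lists with the SPOROS pipeline, and scaled each library to RPM; Trim Galore is named in the submitters' processing notes. Versions are not given in the sources used here. Labels were matched as deposited, so the values depend on how the pipeline assigned mismatched reads. RPM are relative to each library's total, so an abundant miRNA that differs between libraries shifts the others.

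All values (100%) were whole multiples of a library's step (tolerance 0.05 of a step), so whole reads were recovered; the step counts gave 19272046 to 25080484 reads. Reads were counted without molecular identifiers. No column of per-sample values lay outside the 6 libraries (0 unused). No pair of libraries was a duplicate (chi-square over its degrees of freedom at least 278).

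Sample titles gave the groups. Totals per label, read and seed (mean of at least 10 RPM) were tested with limma 3.58.1 (R 4.3.3) with trend on log2(RPM + 1), which understates differences of low features. The 5p to 3p ratio, the ratio of off-seed to main-seed reads and the mean length were tested without trend. Shares were compared with exact two-sided permutation tests. Steps were tested on simulated data whose totals changed 4-fold or, for the mean length, whose lengths changed by 1 nt. That does not measure the power to find smaller differences. edgeR 4.0.16 and DESeq2 1.42.0 on the recovered reads, a pseudocount of 0.1 or 5, a minimum mean of 1 or 100 RPM, scaling by median of ratios, limma with the trend setting switched, the replicate number as a block and leaving out each sample were the alternatives, with single-label reads, reads of at least 1 RPM and main-seed reads where they applied.

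Named were the 3 labels, their 10, 5 and 3 most abundant reads, the 3 most abundant reads off the main seed of each, any member read with an adjusted p under 0.05, the main seed and the next 3 of each, the 5 labels most like each strand, and up to 4 of each list by mean RPM. The members and lists were chosen with earlier results of these data known. Hairpin and mature sequences were from RefSeq (GRCm38.p6) and gene models from GENCODE M21; all 3 names matched. Tails were at most 3 bases after at least 16 matching bases. Tables and plots were made with matplotlib 3.10.9, scipy 1.17.1, pandas 2.3.3 and numpy 2.4.6 under Python 3.11.15.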

Additional observations from a re-analysis of the deposited data

Results flagged for a closer look

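Reads that the second annotation of the table assigns to a miR-9 hairpin but that carry no miRNA label were not part of the comparisons. They were 1070 sequences with 1426, 968 and 1130 RPM at 2M and 1268, 1601 and 1460 RPM at 18M, a mean of 1309 RPM and far above the floor of 3 reads. They amounted to 2.12% to 2.22% of both arms in every sample, and 172 sequences that were 1 substitution away from a leading miR-9 read held 66.6% of them.

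The label mmu-miR-9b-3p, the other arm of the antisense hairpin, had 2 sequences and reached 0.311 RPM in 18M replicate 1, above the 0.156 RPM that 3 reads make there, with a mean of 0.146 RPM over the 6 samples.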

How the results depend on the processing

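No miR-9 label, read, seed, arm ratio, 5′ end ratio or mean length passed the threshold under any alternative run. With the replicate block the log2 fold changes were as without it (0.53 for mmu-miR-9-5p, adjusted p = 0.443), and the labels called over the whole table were 1 in place of 15. Same-numbered samples did not deviate together (correlations of -0.17, -0.22 and -0.10), and samples with different numbers had correlations from -0.10 to 0.18. These values gave no sign that the numbers pair the samples. With 3 samples per age they cannot exclude a pairing. DESeq2 called 43 labels and 151 read sequences, against 15 and 12 in limma, and the minimum of 1 RPM gave 20 read sequences and that of 100 RPM 2 labels. 10 seeds were called in limma, 50 by DESeq2, 5 and 4 at the minimums of 1 and 100 RPM, 4 without the trend and 0 with the replicate block. Leaving out a sample gave 0 or 1 labels (15 without 18M replicate 2), 0 read sequences and 0 to 38 seeds (38 without 18M replicate 2). Read sequences called were also 0 at the minimum of 100 RPM and with the replicate block. For the 5′ end ratio 0 labels were called, but 3 with a pseudocount of 5, 3 from reads of at least 1 RPM and 1 without 18M replicate 3, and for mean length 0, but 4 at the minimum of 100 RPM. mmu-miR-9b-5p gave no value at the minimum of 100 RPM.

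Differences of both signs appeared only where a sample was left out, for values near 0. The mean length difference ranged from -0.0146 to 0.0064 nt for mmu-miR-9-3p and from -0.0289 to 0.0241 nt for mmu-miR-9b-5p, and the log2 ratio of off-seed to main-seed reads of mmu-miR-9b-5p from -0.24 to 0.13. The log2 fold change ranged from -0.012 to 0.128 for the 22 nt mmu-miR-9-5p read, from -0.036 to 0.179 for its 20 nt read at the annotated start and from -0.070 to 0.219 for its 21 nt read starting 1 base later. In percentage points, the difference ranged from -0.113 to 0.171 for 20 nt reads of mmu-miR-9-5p, and for mmu-miR-9-3p from -0.0768 to 0.104 at 20 nt, -0.0760 to 0.516 at 21 nt, -0.722 to 0.0011 at 22 nt and -0.350 to 0.774 at 23 nt. For the mean seed viability of mmu-miR-9-3p it ranged from -0.0371 to 0.0331. The cause was not tested.

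Chosen after seeing the data, the mmu-miR-9-5p total had a log2 difference of 0.53 with the mmu-miR-9b-5p reads added and 0.28 without its 21 nt read, and both arms with the unlabelled hairpin reads 0.30 (exact permutation p = 0.2, 0.3 and 0.2). Under median-of-ratios scaling the log2 fold changes of mmu-miR-9-5p, mmu-miR-9-3p and mmu-miR-9b-5p were 0.62, -0.09 and 0.43.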
